A study of Drosophila melanogaster with 3 samples.

Results

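Of the 7476 peaks bound by tagged Nf-YC that passed the authors' reproducibility threshold, 1493 (19.97%) had their summit 101 to 500 bp upstream of the nearest protein-coding transcription start site (TSS), at a promoter with no divergent neighbour. These are called upstream peaks here. They were selected by position only: the distance ran along the gene's strand, and promoters arranged head to head were set aside. Tagged Nf-YC was mapped by chromatin immunoprecipitation with sequencing (ChIP-seq) in whole Drosophila melanogaster embryos of pooled sexes, 0 to 18 hours old. The flies stably carried a transgene that fuses green fluorescent protein to the C terminus of Nf-YC, and the antibody was raised against this tag. All 3 biological replicates came from this strain and belong to 1 group, so no condition could be compared. Whole embryos mix many cell types, and binding in few cells cannot be told apart from weak binding in many. Upstream peaks were set against 721 core peaks, with summits 0 to 100 bp upstream of a single promoter, and, where stated, against 707 downstream, 1064 head-to-head and 3491 distal peaks. Downstream peaks had summits 1 to 500 bp inside the transcript, and distal peaks lay over 500 bp from every TSS.

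NF-Y is a trimer of the subunits NF-YA, NF-YB and NF-YC. The B and C subunits form a histone-like pair that holds the DNA, and the A subunit reads the sequence CCAAT. In vertebrate promoters, where NF-Y has been studied most, CCAAT boxes typically stand a short way upstream of the TSS, outside the core promoter that positions RNA polymerase II.

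Sequences are shown for a selection of strong upstream peaks, to set summits with a CCAAT box beside summits without one. Each covers 61 bases centred on the summit, read 5′ to 3′ on the gene's strand from the Release 6 genome (dm6), and capitals mark CCAAT or, where the box lies on the other strand, ATTGG. The selection took peaks on 2L, 3L, 3R, 4 and X whose 61 bases touch no annotated exon. Of these it shows the 10 strongest with a box in this stretch and the 4 strongest with none within 100 bp of the summit, so stronger peaks elsewhere are not shown. Calr and caup carry a box on each strand, and the other 8 of the 10 carry 1 box.
Calr (chr3R:9630933-9630993, minus strand): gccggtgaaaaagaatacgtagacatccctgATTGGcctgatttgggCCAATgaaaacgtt
caup (chr3L:12609465-12609525, plus strand): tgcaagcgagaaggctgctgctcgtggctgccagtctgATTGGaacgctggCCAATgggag
ey (chr4:704476-704536, plus strand): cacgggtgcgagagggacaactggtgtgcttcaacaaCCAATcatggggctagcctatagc
fd96Cb (chr3R:25094753-25094813, plus strand): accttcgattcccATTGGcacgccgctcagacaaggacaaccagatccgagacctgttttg
fkh (chr3R:28585499-28585559, minus strand): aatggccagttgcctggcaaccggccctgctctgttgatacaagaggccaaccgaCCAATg
Doc3 (chr3L:9004911-9004971, plus strand): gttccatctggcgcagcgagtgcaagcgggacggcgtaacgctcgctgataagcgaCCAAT
lbl (chr3R:21434327-21434387, minus strand): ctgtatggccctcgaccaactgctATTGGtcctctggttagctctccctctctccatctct
tin (chr3R:21378828-21378888, plus strand): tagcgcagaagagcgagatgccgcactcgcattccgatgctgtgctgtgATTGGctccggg
CG42673 (chr3L:9547011-9547071, plus strand): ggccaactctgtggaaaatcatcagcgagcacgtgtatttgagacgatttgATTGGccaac
fd102C (chr4:844618-844678, minus strand): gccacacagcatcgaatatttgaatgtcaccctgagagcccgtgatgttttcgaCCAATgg
toy (chr4:989555-989615, plus strand): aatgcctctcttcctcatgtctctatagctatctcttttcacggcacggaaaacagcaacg
eyg (chr3L:12468171-12468231, minus strand): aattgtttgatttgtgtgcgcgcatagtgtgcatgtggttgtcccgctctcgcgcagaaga
unc-4 (chrX:17768274-17768334, plus strand): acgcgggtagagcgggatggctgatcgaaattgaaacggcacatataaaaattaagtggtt
Ptx1 (chr3R:30912556-30912616, plus strand): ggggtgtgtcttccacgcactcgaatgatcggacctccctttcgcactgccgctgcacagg

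The upstream class held many of the strongest peaks of the whole set. Peak strength is the authors' own signal value, a score without a stated unit, and library depth is unknown. Of the 100 strongest peaks, 50 were upstream (50%, 95% Wilson interval 40.4 to 59.6%), against 3 core and 4 head-to-head peaks, while 41 were distal. The same count was 51, 50 and 52 among the 100 strongest peaks of replicates 1, 2 and 3. Upstream peaks made up 34.4% of the strongest 10% of all peaks, and their share lay between 14.3% and 25.8% in each later 10%. These intervals cover counting error only, and neighbouring peaks are not independent.

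**Figure D1:**
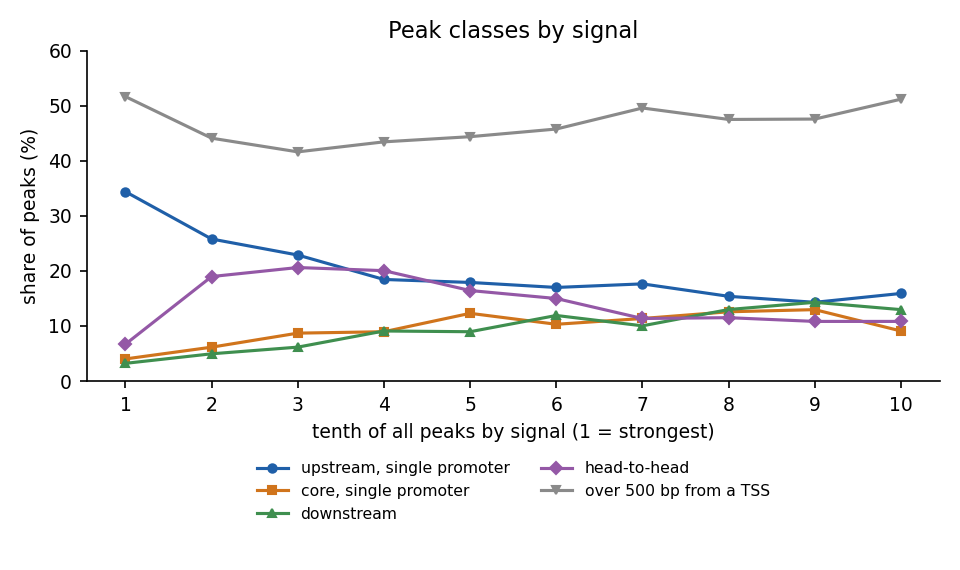
Share of each peak class (y axis, percent) in steps of 10% of all 7476 peaks ordered by signal, strongest at the left (x axis). Upstream peaks made up 34.4% of the strongest 10% and 15.9% of the weakest 10%.

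The median signal was 569 for upstream peaks (quartiles 352 and 1225, range 246 to 81383) and 399 for core peaks. It was 374 for downstream, 526 for head-to-head and 444 for distal peaks. In the replicate lists, with summits matched within 100 bp, upstream peaks had medians of 287, 189 and 134 in replicates 1, 2 and 3, against 188, 152 and 96.1 for core peaks. Upstream peaks were thus higher in all 3 replicates. The difference of the log2 medians, upstream minus core, was 0.61, 0.31 and 0.48 (mean 0.47 ± 0.15, SD, n = 3; exact sign-flip permutation test, two-sided p = 0.25, the smallest that 3 replicates allow). Against distal peaks it was 0.36 ± 0.10 (SD, n = 3), also positive in every replicate. Against head-to-head peaks the direction was not stable: the difference was 0.29, 0.15 and -0.19, negative in replicate 3 (mean 0.09 ± 0.25, SD, n = 3; exact permutation p = 0.75).

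The strongest upstream peak lay 140 bp upstream of toy, which encodes a Pax6 transcription factor of eye and head development, on chromosome 4 (peak 988412 to 990211, intergenic). Its signal in replicates 1, 2 and 3 was 31383, 23209 and 26971, and it was the strongest peak in each list. The other fly Pax6 gene, ey, had a peak in its own intron, 145 bp upstream of one of its start sites (chromosome 4, 703609 to 705310). That peak reached 15213, 11071 and 7531 in the 3 replicates. Peaks at toy and ey thus ranked 1 and 10 among upstream peaks, and at ey replicate 3 was the lowest.

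Calr, the gene for calreticulin, a calcium-binding chaperone of the endoplasmic reticulum, was among the genes of the 20 strongest whose product is not a transcription factor. Its peak lay 112 bp upstream (3R, 9629777 to 9631975, intergenic), with 26306, 17453 and 12808 in replicates 1, 2 and 3. This summit had 3 CCAAT boxes within 100 bp, the nearest 3 bp away. Another such gene was sgl, whose product makes UDP-glucuronic acid for proteoglycan synthesis, with 14798, 10233 and 6563 at a peak 116 bp upstream (3L, 6963357 to 6965465, intergenic). Su(z)2, a Polycomb group gene, had 21959, 15559 and 11084 at an intergenic peak 123 bp upstream (2R, 12995820 to 12997928). At all 3 of these peaks the order of the replicates was the same, with replicate 3 lowest.

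Most of the remaining genes among the 20 strongest encode developmental transcription factors. The Iroquois homeodomain gene caup had 19492, 14264 and 16333 in replicates 1, 2 and 3 at an intergenic peak 136 bp upstream (3L, 12608923 to 12610131). The pair-rule gene opa had 31002, 21885 and 21279.7 at an intergenic peak 267 bp upstream (3R, 4851788 to 4853357). SoxN, a Sox gene of the early nervous system, had 13113, 9995 and 9469 at an intergenic peak 222 bp upstream (2L, 8824926 to 8826045), the strongest upstream peak on that arm. The strongest on X belonged to the homeobox gene unc-4, which specifies motor neuron identity, with 9082, 6484 and 10467 at 265 bp upstream (17767765 to 17768833, intergenic). There replicate 3 was the highest, unlike most upstream peaks.

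**Figure D2:**
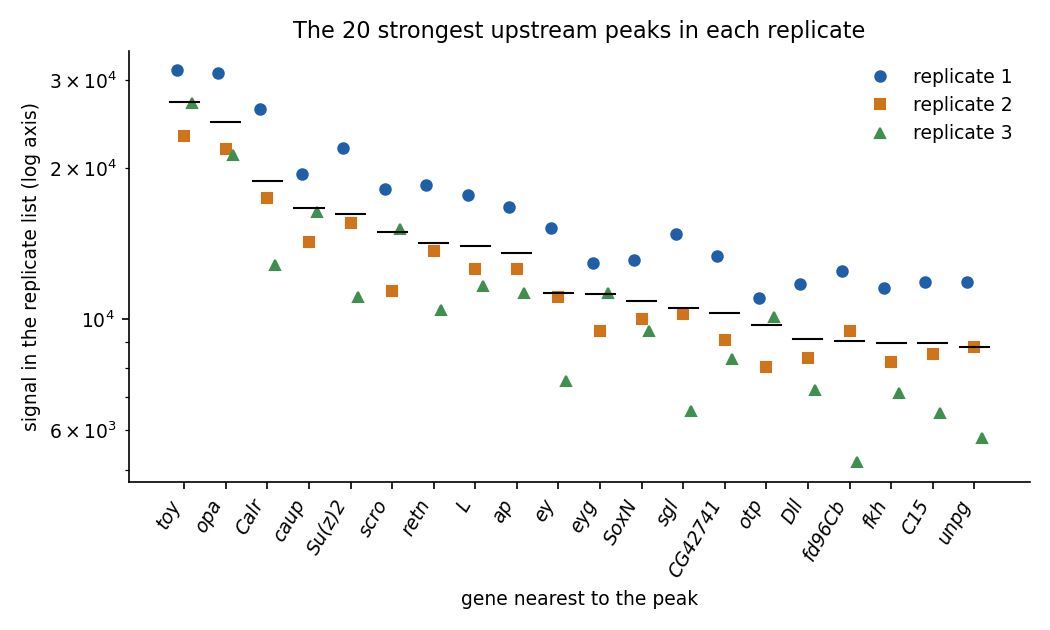
Signal (y axis, log scale, no unit) of the 20 strongest upstream peaks in replicates 1, 2 and 3, named by the nearest gene (x axis). Horizontal bars are the means of the 3 replicates; replicate 1 gave the highest value for each of the 20 peaks.

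Signals were not scaled between the lists. Replicate 3 gave the lowest value for 993 of the 1193 upstream peaks found in all 3 lists, and replicate 1 the highest for 1060. A mean and SD over replicates therefore holds this difference in scale, as at toy (27188 ± 4092, SD, n = 3) and ey (11272 ± 3845, SD, n = 3). Of the 1493 upstream peaks, 1193 (79.9%, Wilson interval 77.8 to 81.9%) had a summit within 100 bp in all 3 lists of 30000 peaks, against 77.5% of core peaks and 85.5% of distal peaks. This share was 98.0% in the strongest 20% of upstream peaks and 58.9% in the weakest 20%. Replicate 3 lacked 168 of the upstream peaks, and 4 lay farther than 100 bp from every replicate summit, with a median signal of 1744.

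Summits crowded toward the start site. The median distance was 210 bp (quartiles 150 and 305), with 377 peaks at 101 to 150 bp and 60 at 451 to 500 bp. Signal did not simply follow the number of peaks: the median was 488 at 101 to 150 bp, 804 at 151 to 200 bp and 651 at 201 to 250 bp. It fell to 421 at 351 to 400 bp. Near the lower bound, the 75 peaks at 101 to 110 bp had a median signal of 429.7 and the 65 at 91 to 100 bp one of 451. Near the upper bound, the medians were 876 for 14 peaks at 491 to 500 bp and 501 for 10 peaks at 501 to 510 bp.

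**Figure D3:**
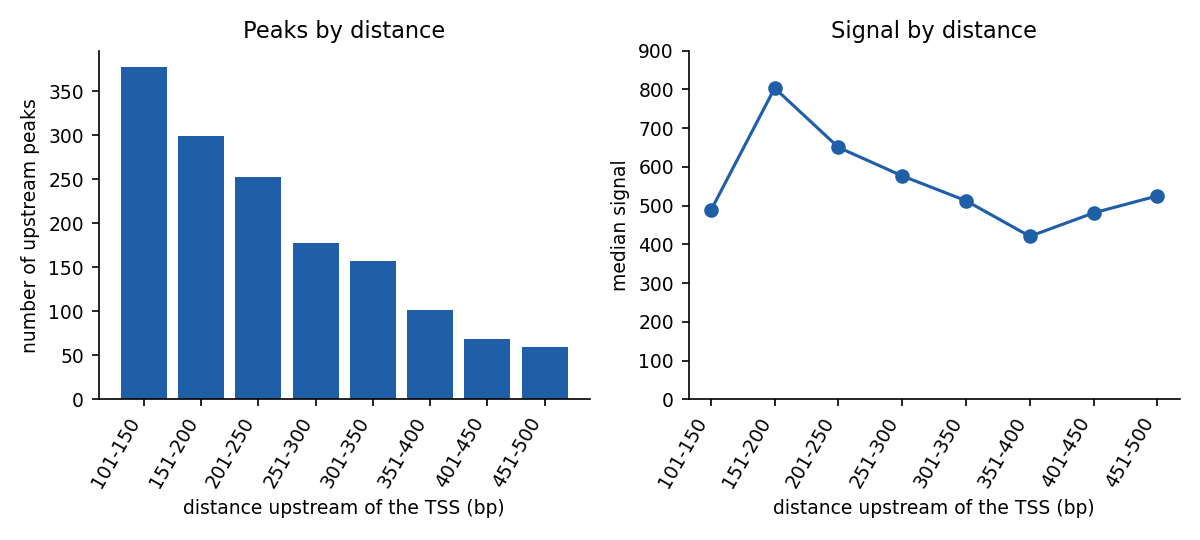
Number of upstream peaks (left) and their median signal (right) in steps of 50 bp from the TSS (x axis). Counts fell steadily with distance, from 377 at 101 to 150 bp to 60 at 451 to 500 bp, and the median signal was highest, 804, at 151 to 200 bp.

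By annotation, 860 of the summits (57.6%) were intergenic and 426 (28.5%) lay in an intron of the same gene, ahead of an internal start site. Another 79 (5.29%) lay in an intron of another gene, 50 (3.35%) in a 5′ UTR and 27 (1.81%) in a 3′ UTR. Coding exons held 8 (0.536%) and non-coding exons 43 (2.88%). The peak assigned to CG42741, 239 bp upstream of its TSS (2R, 23042625 to 23043742), had its summit in an intron of twi, the mesoderm-determining gene. A non-coding TSS was nearer than the protein-coding one for 65 upstream peaks (4.35%).

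The 1493 peaks were nearest to 1272 of 13945 protein-coding genes, 9.12% of them. Of these genes, 1081 had 1 upstream peak, 166 had 2 and 25 had 3 or more. Several peaks of a gene need not be separate sites. The 1493 peaks lay in 1426 distinct listed regions, and for 231 of them the listed region held another summit. Of 221 gaps between neighbouring upstream summits of the same gene, 109 were under 500 bp. Rtnl1, which encodes a reticulon that shapes the endoplasmic reticulum, had 5 at its 7 start sites, with signals between 249 and 2316. The Hox gene Abd-B had 3 between 360 and 2462, and the retinal determination gene eya had 3 between 413 and 8258. Genes with an upstream peak often had several start sites: 52.7% had more than 1, against 26.5% of all genes, and a gene with more start sites has more positions that can be nearest to a peak. Upstream peaks were not alone at many genes, since 535 of the 1272 were also nearest to a distal peak and 605 to no other class.

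Upstream peaks lay at most genes of several developmental families. The lists were written from textbook knowledge with earlier results of these data known, and contain genes that control patterning. The share over all genes, 9.12%, is the value to read them against. All 10 retinal determination genes and all 6 LIM homeobox genes had one. The counts were 18 of 20 for appendage patterning genes, 10 of 12 for gap and head gap genes, 13 of 17 for paired-like homeobox genes and 14 of 19 for Iroquois and NK-like homeobox genes. Other developmental lists were lower, with 11 of 17 forkhead, 10 of 16 neuroblast temporal and identity, 12 of 21 nuclear receptor and 14 of 33 basic helix-loop-helix genes. The lists share members: toy and ey are in both the retinal determination and the paired-like list. In 15 such lists joined, 132 of 195 genes (67.7%) had an upstream peak and 26 (13.3%) a core peak. Distal peaks were nearest to a like number of these genes, 138 of 195 (70.8%). Over all genes, 9.12% had an upstream peak, 5.05% a core peak and 12.4% a distal peak. Taking each replicate's own 7476 strongest peaks gave 69.2%, 67.7% and 69.7% of the 195 genes with an upstream peak (68.9% ± 1.07, SD, n = 3), against 9.14% ± 0.661 of all genes (SD, n = 3).

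The developmental genes were gathered at the strong end. Of the strongest 20% of upstream peaks, 112 of 298 (37.6%, Wilson interval 32.3 to 43.2%) lay at a gene of these lists, against 3.01% to 7.36% in each weaker 20%. They made up 33 of the 50 strongest. Core peaks were also gathered at the strong end, at a lower level, with 17 of 144 (11.8%) in their strongest 20% against 0.694% to 2.76% in each weaker 20%.

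Among the eye genes, eyg, a Pax gene of eye growth, had 12933, 9468 and 11275 in replicates 1, 2 and 3 at an intergenic peak 180 bp upstream (3L, 12467688 to 12468719). Optix, a Six-family homeobox gene, had 8198, 5869 and 6051 at an intergenic peak 295 bp upstream (2R, 8030452 to 8031539). Neither had CCAAT within 100 bp of the summit. The LIM homeobox gene ap, which selects dorsal wing identity, had 16737, 12582 and 11263 in its own intron, 153 bp upstream of a start site (2R, 5726446 to 5727567). Dll, needed for distal limbs, had 11764, 8373 and 7209 at an intergenic peak 148 bp upstream (2R, 24813451 to 24815150). These 4 peaks lay among the 30 strongest upstream peaks.

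The forkhead genes fkh and fd96Cb, which encode winged-helix factors, had peaks 265 and 229 bp upstream (3R, 28584831 to 28586133 and 25094159 to 25095452, both intergenic). The fkh peak had 11556, 8206 and 7135 in replicates 1, 2 and 3. The fd96Cb peak had 12468, 9476 and 5184. Among GATA genes, pnr, a regulator of dorsal and heart cells, had 10769, 8045 and 6940 at 139 bp upstream (3R, 16025459 to 16026472, intergenic). The blood-cell GATA gene srp was far weaker, with 1045, 618 and 279.6 at 195 bp upstream (3R, 15985651 to 15986256, intergenic). All 3 replicates placed srp below the other 3 of these genes.

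Signal also varied among segmentation and Hox genes. The Wnt ligand gene wg had 7434, 5457 and 6499 at 188 bp upstream (2L, 7306520 to 7307401, intergenic), whereas the hedgehog ligand gene hh had 1394, 1167 and 1054 at 158 bp upstream (3R, 23141727 to 23142353, intergenic). The homeobox paralogues inv and en had peaks 113 and 117 bp upstream (2R, 11475084 to 11476020 in the 5′ UTR of inv, and 11527694 to 11528745, intergenic). The inv peak had 6236, 4695 and 6773, and the en peak 4247, 2741 and 3103. Of the 8 Hox genes, 5, 6 and 8 had an upstream peak in the own strongest peaks of replicates 1, 2 and 3. In the thresholded set, 5 of 8 had an upstream peak. The strongest was at Dfd, a head segment identity gene, with 5646, 4039 and 4101 at 201 bp upstream (3R, 6791091 to 6792044, intergenic), and the weakest of the 4 named here was at Abd-B with 1100, 829.8 and 554 (3R, 16960165 to 16960714, intron of the same gene). Between them stood Scr with 4200, 3002 and 3177 (3R, 6849710 to 6850470) and abd-A with 1370, 975 and 1180 (3R, 16829947 to 16830446).

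Genes of general cell functions had upstream peaks more rarely than the developmental lists, at a joined share near that of all genes. The ribosomal, proteasome and autophagy lists were matched by symbol pattern and can include paralogues and related names. Upstream peaks lay at 13 of 92 cytosolic ribosomal protein genes (14.1%), 3 of 48 proteasome genes (6.25%), 2 of 73 mitochondrial ribosomal protein genes (2.74%) and 2 of 20 autophagy genes (10%). Joined, these lists had an upstream peak at 20 of 233 genes (8.58%), near the 9.12% of all genes, a core peak at 12.02% and a head-to-head peak at 22.3%. In the replicates' own strongest peaks the upstream share was 7.30%, 6.01% and 9.44% (7.58% ± 1.74, SD, n = 3). RpLP2, which encodes a stalk protein of the large ribosomal subunit, had the strongest upstream peak of the cytosolic list, with 429.8, 322 and 213 at 200 bp upstream (2R, 16585754 to 16586203, intergenic).

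Metabolic, stress and signalling genes lay between the joined developmental and the joined general lists. Upstream peaks were at 10 of 27 signalling ligand genes, 5 of 14 Notch pathway genes, 6 of 14 Hippo pathway genes, 5 of 22 muscle structural genes and 5 of 20 neuronal and synapse genes. Of 13 glycolysis genes, 5 had an upstream peak (38.5%). The strongest, at Gapdh2, had 3119, 2156 and 1194 in replicates 1, 2 and 3 at 162 bp upstream (X, 15867698 to 15868277, intergenic), with 2 CCAAT boxes within 100 bp. Of 22 genes of the unfolded protein response, 7 had one (31.8%). Next to Calr, the strongest was Hsc70-3, which encodes the chaperone BiP, with 1078, 729 and 228 at 337 bp upstream (X, 11805231 to 11806620, intron of the same gene). The cell death genes grim and rpr had 2881, 1947 and 916 at 168 bp upstream (3L, 18304203 to 18305004) and 794, 616 and 318 at 131 bp upstream (3L, 18398222 to 18398835), both intergenic. The 3 replicates fell in the same order at all 4 of these peaks.

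Gene families of taste and smell, cuticle and reproduction had almost none. No chemoreceptor gene of 179 had an upstream peak (0%, upper Wilson bound 2.10%), and 0 had one in any replicate's own strongest peaks. The counts were 2 of 92 for cuticle protein genes and 2 of 98 for odorant-binding and seminal protein genes. These lists were also matched by symbol pattern. Of the Polycomb group, Su(z)2, ph-d and ph-p had an upstream peak (3 of 18). The ph-d and ph-p genes are a tandem duplication with much shared sequence, so their peaks (X, 2123004 to 2124892 and 2136306 to 2138931) may not be separable.

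**Figure D4:**
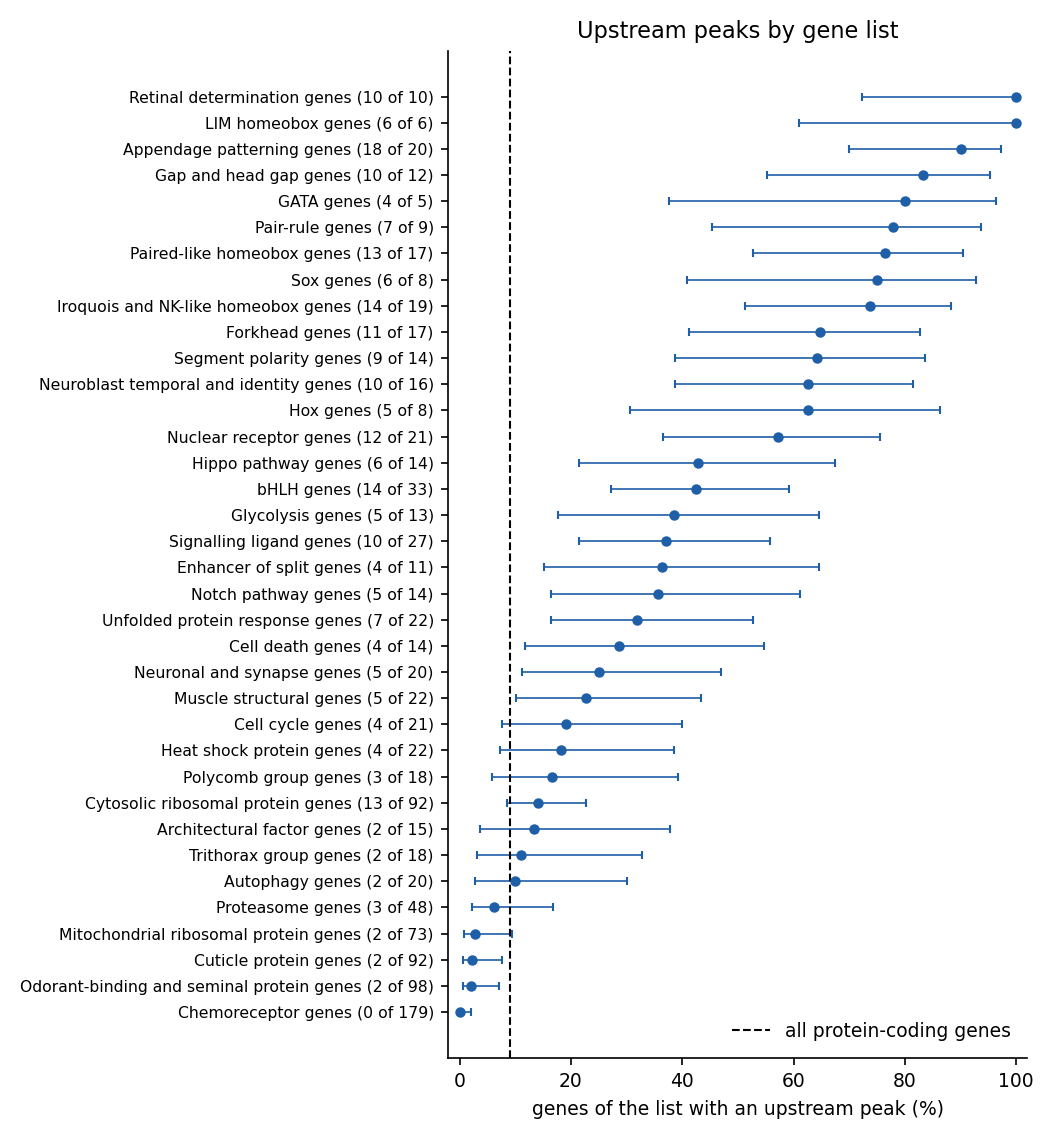
Percentage of the genes of each list with an upstream peak (x axis), with 95% Wilson intervals that cover counting error only and with the counts beside the names. The dashed line is the 9.12% of all 13945 protein-coding genes; retinal determination genes reached 10 of 10 and chemoreceptor genes 0 of 179.

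CCAAT, searched on both strands within 100 bp of the summit, was found at 598 of 1493 upstream peaks (40.1%, Wilson interval 37.6 to 42.6%). It was found at 39.1% of core peaks and 39.2% of distal peaks, and in 34.9% of 19253 promoter windows of the same 201 bp centred 210 bp upstream of every TSS. The odds ratio, upstream over core, was 1.04 (95% interval 0.867 to 1.25; two-sided Fisher's exact test, p = 0.677). Against distal peaks it was 1.04 (0.915 to 1.17; Fisher's exact test, p = 0.591). These tests and those below run over peaks, which are not biological replicates. In the replicates' own strongest peaks the upstream-to-core odds ratio was 1.06, 1.18 and 1.02 (1.09 ± 0.0826, SD, n = 3). Over all peaks and in each replicate the values of both classes were close, and the intervals over all peaks allow a difference of either sign. Split by the GC content of the window, a choice made after the data were seen, the direction differed. At or over 36.8% GC, the upstream median, CCAAT was at 45.2% of upstream and 39.2% of core peaks (odds ratio 1.28, 1.02 to 1.60; Fisher's exact test, p = 0.031, adjusted p = 0.0723). Below it, the shares were 34.9% and 38.95% (odds ratio 0.84, 0.597 to 1.18; Fisher's exact test, p = 0.332).

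The box was more frequent at strong upstream peaks. It was present at 188 of 373 peaks (50.4%) in the strongest 25% of upstream peaks and at 140 of 373 (37.5%) in the weakest 25%, an odds ratio of 1.69 (1.26 to 2.26; Fisher's exact test, p = 0.000518). Replicates 1, 2 and 3, each taken by its own strongest peaks, gave odds ratios of 1.70, 1.82 and 1.55. The strongest 20% accounted for this, with 53.4% (47.7 to 58.9%), against 33.9% to 38.5% in each later 20%. Core peaks had a like pattern, with 54.9% (46.7 to 62.8%) in their strongest 20%. GC content moved with it. The median GC of the window was 51.2% in the strongest 20% of upstream peaks, against 33.3% to 36.3% in each later 20%. Median peak width was 841, 490, 340.5, 322 and 480 bp from the strongest to the weakest 20%, so it did not fall steadily with signal. Among upstream peaks with GC at or over the median of 36.8%, CCAAT was at 54.5% of strong and 40.4% of weak peaks (odds ratio 1.76, Fisher's exact test, p = 0.00488). Among those below it, the shares were 41.5% and 34.7% (odds ratio 1.33, Fisher's exact test, p = 0.275), which did not pass the threshold. This split by GC was chosen after the data were seen.

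**Figure D5:**
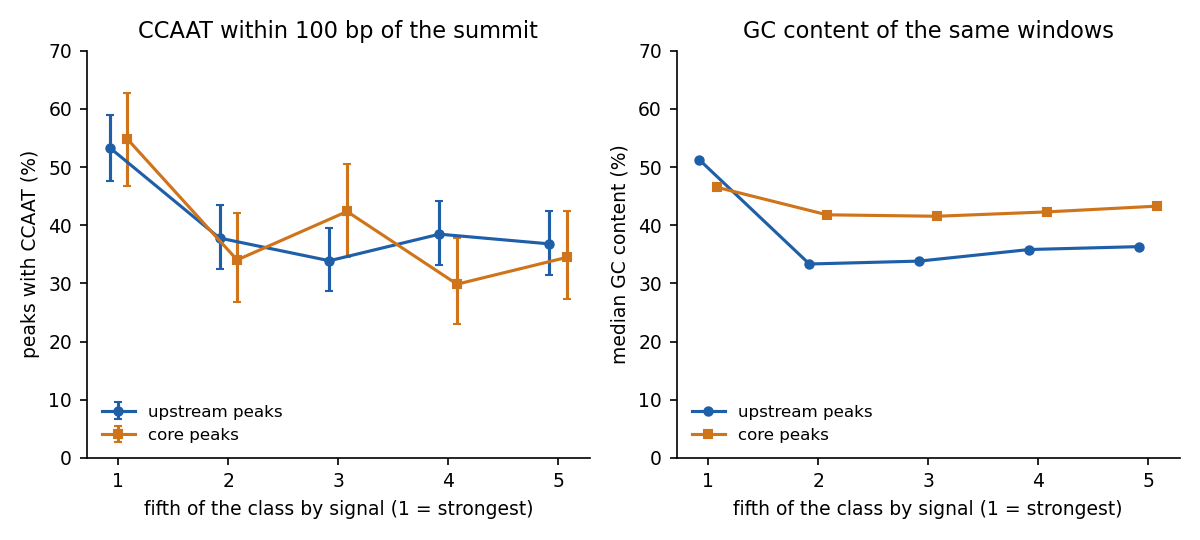
Left, percentage of peaks with CCAAT within 100 bp of the summit (y axis) in steps of 20% of upstream and of core peaks by signal, strongest at the left, with 95% Wilson intervals. Right, median GC content of the same windows; in the strongest 20% of upstream peaks CCAAT was at 53.4% and GC at 51.2%.

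The boxes clustered around the summit, most clearly at strong peaks. In the strongest 25% of upstream peaks the density was 3.73 boxes per kb within 25 bp of the summit and 1.84 per kb at 200 to 300 bp. Between these it was 3.54 at 25 to 50 bp, 3.38 at 50 to 100 bp and 2.31 at 100 to 150 bp. Over all upstream peaks the density within 25 bp and at 200 to 300 bp was 2.92 and 2.13 per kb. In the weakest 25% it was 2.89 and 2.31 per kb. Distal peaks had a like rise, with 3.04 and 2.18 per kb, whereas core peaks had 2.37 and 2.50 per kb. At 141 upstream peaks (9.44%) there were 2 boxes or more. Of 765 boxes within 100 bp, 407 (53.2%, Wilson interval 49.7 to 56.7%) read CCAAT on the strand of the gene, an interval that includes equal use of both strands. The side of the summit facing the TSS held 376 of them (49.2%).

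Other sequence motifs separated upstream from core peaks. Of 14 motifs searched on both strands within 100 bp of the summit, 5 (35.7%) passed an adjusted p of 0.05 (Fisher's exact test with Benjamini-Hochberg adjustment over the 14). The core of the DNA replication-related element, ATCGAT, bound by the factor Dref at promoters of growth genes, was at 8.37% of upstream and 26.9% of core peaks (odds ratio 0.248, exact test, adjusted p = 3.48e-28) and in 9.47% of all promoter windows. Motif 1, GGTCACAC, bound by the factor M1BP, was at 1.88% and 10.3% (odds ratio 0.167, exact test, adjusted p = 2.00e-16), and in 1.86% of all promoter windows. Upstream peaks held more of 3 motifs than core peaks did. TATAAA was at 32.6% of upstream and 19.0% of core peaks (odds ratio 2.06, exact test, adjusted p = 5.50e-11; 32.2% of promoter windows). The homeodomain site TAATTA was at 15.7% and 8.60% (odds ratio 1.99, exact test, adjusted p = 7.41e-06; 16.6% of promoter windows). The GA repeat GAGAG, bound by GAGA factor, was at 35.2% and 29.5% (odds ratio 1.29, exact test, adjusted p = 0.0262; 22.6% of promoter windows). Distal peaks had GAGAG at 35.3%, like upstream peaks, TATAAA at 24.6% and TAATTA at 11.7%. For TATAAA and TAATTA the upstream share was close to that of promoter windows, and the core share was below it. CCAATC, which contains CCAAT, the E-box CACGTG, the Pho core GCCAT and the Zelda core CAGGTA did not pass.

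The median GC content was 36.8% at upstream and 42.8% at core peaks, and the motifs were therefore also compared within GC ranges. Within windows at or over 36.8% GC, TATAAA was at 13.9% of upstream and 13.1% of core peaks and TAATTA at 6.42% and 5.10%, and neither difference passed (adjusted p = 0.80 and 0.433, Fisher's exact test with Benjamini-Hochberg adjustment). Below 36.8% GC, TATAAA was at 51.4% and 37.8% and passed (odds ratio 1.74, adjusted p = 0.00607), while TAATTA was at 25.1% and 19.8% and did not (adjusted p = 0.332, both from Fisher's exact test with Benjamini-Hochberg adjustment). ATCGAT and GGTCACAC passed in both GC ranges. The Zelda and Pho cores, which did not pass over all peaks, passed in the higher range. There CAGGTA was at 6.95% of upstream and 3.46% of core peaks, and GCCAT at 39.3% and 31.9% (adjusted p = 0.0179 each, Fisher's exact test with Benjamini-Hochberg adjustment). GAGAG was at 52.4% and 35.2% in the higher range (adjusted p = 3.21e-09) and at 17.8% and 11.6% in the lower (adjusted p = 0.187, both from Fisher's exact test with Benjamini-Hochberg adjustment).

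The 100 bp either side of an upstream summit never reach a protein-coding TSS, whereas those of a core summit always do. The motif comparison above therefore set different stretches of the promoter side by side. Core promoter elements were also read at fixed places from the TSS, a comparison chosen after the data were seen. It set 1384 TSSs with an upstream peak against 642 with a core peak only. Of 4 elements, 3 (75%) passed by Fisher's exact test with Benjamini-Hochberg adjustment. The Initiator TCAGT, on the gene's strand between 5 bp upstream and 10 bp downstream, was at 22.4% of the TSSs with an upstream peak and 11.5% of those with a core peak (odds ratio 2.22, exact test, adjusted p = 5.47e-09), and at 12.3% of all TSSs. ATCGAT within 100 bp upstream was at 8.82% and 22.0% (odds ratio 0.344, exact test, adjusted p = 1.23e-14), and GGTCACAC at 2.60% and 5.30% (odds ratio 0.478, exact test, adjusted p = 0.00488). A TATA box 20 to 40 bp upstream was at 3.47% and 2.02% and did not pass (exact test, adjusted p = 0.0929). Over all TSSs the shares were 12.8% for ATCGAT, 2.63% for GGTCACAC and 6.19% for the TATA box. The TATA box was thus below this share in both classes, and GGTCACAC was close to it at TSSs with an upstream peak.

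Strong and weak upstream peaks also differed in sequence beyond CCAAT. Between the strongest 25% and the weakest 25%, 9 of 14 motifs (64.3%) passed by Fisher's exact test with Benjamini-Hochberg adjustment, a comparison chosen after the data were seen except for CCAAT. The GA repeat GAGAG was at 49.6% of strong and 29.5% of weak upstream peaks (odds ratio 2.35, exact test, adjusted p = 3.71e-07). The same shares in core peaks were 30.6% and 27.8%, and the difference between the classes was not tested. GCCAT, the core bound by the Polycomb recruiter Pho, was at 39.1% and 26.3% (odds ratio 1.80, exact test, adjusted p = 0.00166). TAATTA was at 10.2% and 19.0% (odds ratio 0.482) and ATCGAT at 4.02% and 10.99% (odds ratio 0.339), both lower at strong peaks. Median GC was 48.8% in the strong and 36.3% in the weak peaks. Within the windows at or over 36.8% GC, 4 motifs passed: the CCAAT box, its form with a following C, the GA repeat and the Pho core. In those under it, 0 passed, with 2 at an unadjusted p under 0.05, the ATCGAT core and the CA repeat, both lower at strong peaks. The odds ratio of ATCGAT, strong over weak, was 0.382 in the higher and 0.354 in the lower GC range, close to its 0.339 over all peaks, though neither passed after adjustment.

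Among the chromosome arms, the small chromosome 4 had 16 upstream peaks at 13 of its 80 genes (16.2%), and X had them at 11.4% of its genes, against 8.14% to 8.96% on the other 4 arms. On chromosome 4, 12 of the 16 peaks had CCAAT (75%, Wilson interval 50.5 to 89.8%), against 36.0% to 45.2% on the other arms. Besides toy, ey and fd102C, the Sox gene Sox102F lies there, with 4029, 2568 and 639.7 in replicates 1, 2 and 3 at 211 bp upstream (833885 to 835355, intergenic). These are descriptions, and with 16 peaks the interval is wide.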

How the data were processed

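The authors deposited peak lists on dm6, per the labels: 1 list of 30000 peaks for each of 3 replicates, a pooled list and a set of 7476 peaks thresholded by the irreproducible discovery rate. The sources used here name no caller and no threshold value. The deposited signal is a score, and the deposited −log10 q-value was 4.24 throughout the set. Both are the authors' values. Library depth is unknown.

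Summits were assigned to the nearest protein-coding TSS (Ensembl release 115, BDGP 6.54) with Python 3.11.15 and SciPy 1.17.1, and sequences were read from the Release 6 genome. Coordinates are 1-based. Replicate summits were matched within 100 bp. Fisher's exact tests on shares were two-sided, and shares carry 95% Wilson intervals. The motif search was tested on simulated data. The class, the motifs, the 36 gene lists and the naming rule were chosen with earlier results of these data known. Named genes came from the 20 strongest upstream peaks, the 4 strongest members of each list with at least 3, genes with 3 or more peaks, the strongest peak per arm and the printed sequences; those the results turn on are given. Alternatives changed distances, TSS definitions, windows, signal limits and replicates. Control reads and signal tracks were not analysed here.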

Additional observations from a re-analysis of the deposited data

How the results depend on the processing

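Upstream peaks numbered 893 among the stronger 50% of all peaks and 992 to 1093 when 1 replicate was left out, where a peak had to be among the 7476 strongest of both other lists. The other rules for distance and TSS gave 1083 to 1881. The share found in all lists was 90.0% in the stronger 50%, 54.1% with summits matched within 50 bp, 91.0% within 200 bp and 83.7% to 89.4% without 1 replicate. Odds ratios of CCAAT near 1 changed side without passing the threshold. Against core peaks it was 0.913 in the stronger 50% and 0.894 to 0.977 without 1 replicate. Against distal peaks it was 0.926 in the stronger 50%, 0.979 with head-to-head peaks kept and 0.993 to 1.03 without 1 replicate. CCAAT in strong against weak upstream peaks passed in every alternative (1.34 to 2.38) except among peaks with GC under the median (1.33). In that GC range 3 motifs passed between upstream and core peaks, and 0 between strong and weak ones, against 4 at higher GC. Splitting by GC also lowers the number of peaks tested, and the cause was not tested. The log2 signal difference from core peaks stayed between 0.39 and 0.58.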

Other observations

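In the last 50 bp before the start site, the share of CCAAT on the gene's strand was below that at the summits. At the 1384 TSSs with an upstream peak, 60 of 149 boxes in the last 50 bp before the TSS (40.3%, Wilson interval 32.7 to 48.3%) read CCAAT on the gene's strand. In the strongest 25% this was 11 of 40 (27.5%, 16.1 to 42.8%). The other windows of 50 bp upstream of the TSS gave 46.9% to 56.3% over all of these TSSs and 44.2% to 66.7% in the strongest 25%. From 0 to 49 bp downstream the share was 42.9% at the TSSs with an upstream peak. At all TSSs it was 49.2% in the last 50 bp and 46.8% at 0 to 49 bp. The window of the last 50 bp was picked after its values were seen, from 12 windows in each group, and no test was made.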
